A study of Mus musculus with 4 samples.

Results

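The genes described here are 52 genes of the cell division cycle, read by RNA-seq in freshly isolated satellite cells, which are the stem cells of mouse skeletal muscle. They were taken by matching gene symbols to a list of symbols, and each symbol matched 1 of the 55487 genes in the tables. By role, 12 are cyclins and cyclin-dependent kinases (CDKs), 16 act in DNA replication, 20 act in mitosis and 4 are transcription factors. Of the 4 libraries, 2 came from Rbfox2 conditional knockout (cKO) cells and 2 from Control cells. The cKO mice carried floxed Rbfox2 alleles, the Pax7CreERT2 driver and a Rosa26 EYFP reporter, and tamoxifen induced the deletion, which is therefore limited to cells that expressed Pax7. The labels name the other group only as Control, without its alleles or tamoxifen treatment, and give no age for either group. Rbfox2 binds RNA and controls the splicing of many transcripts, and the study asks what it does as satellite cells activate. Whether the libraries of a group come from different animals is not in the labels. The p-values therefore cover the spread between these libraries alone, and that spread may be technical.

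Satellite cells rest outside the cell cycle in uninjured muscle and enter it when they activate. Cyclin D with Cdk4 or Cdk6, and then cyclin E with Cdk2, start the cycle by releasing E2F transcription factors from the retinoblastoma proteins. E2F turns on the genes that license, load and feed the replication fork, and a later wave of transcription, driven by the MuvB complex with B-Myb and Foxm1, supplies the mitotic kinases, kinesins and centromere proteins. CDK inhibitors such as p21 and p57 hold the kinases in check.

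Values are given on 2 scales. TPM is transcript abundance corrected for transcript length, used to compare levels between genes. CPM is counts scaled to a common library size, on which the edgeR quasi-likelihood test compared cKO with Control. Library totals lay between 68884091 and 101997422 estimated counts. Rbfox2 itself had 20.9 and 12.2 TPM in cKO 1 and 2, against 49.5 and 27.4 TPM in Control 1 and 2, and its counts fell in cKO by 1.76 on the log2 scale (SE 0.35, edgeR adjusted p = 0.000252). The groups did not overlap, and leaving out any 1 library ended that call, with log2 fold changes between -2.61 and -1.04. Satellite cell markers were abundant in all 4 libraries, with summed TPM of 16734 and 17361 in cKO and 17301 and 16681 in Control over 12 genes. Their median was 86.0 and 71.2 TPM in cKO and 109 and 79.2 TPM in Control, so the more abundant genes carried most of each sum. Of the 12, 5 had positive and 7 negative log2 fold changes (41.7% positive, against 55.0% of all genes). Pax7, a defining transcription factor of the satellite cell, had 15.9 and 13.5 TPM in cKO and 7.90 and 6.995 TPM in Control (log2 fold change 0.84, SE 0.33, edgeR adjusted p = 0.556). It was called in edgeR on library totals alone (0.98, adjusted p = 0.00911, where 0.739% of all genes were called). Limma on unfiltered TPM also called it (0.89, adjusted p = 0.0359, where 0.742% were called), but not limma on filtered TPM (adjusted p = 0.0994). The log2 fold change of Pax7 was 1.01 without cKO 1 and 0.59 without cKO 2. Red cell markers summed to 1799 and 1472 TPM in cKO and 337 and 764 TPM in Control. In edgeR 5 of the 7 rose, against 0.364% of all genes. Log2 fold changes were positive for 6 of the 7, against 55.0% of all genes, and the lowest was -0.25. Klf1, a transcription factor that defines erythroid cells, was low in all 4 libraries and higher in both cKO libraries. It had 0.517 and 0.441 TPM in cKO and 0.163 and 0.369 TPM in Control. All 4 values are under the receptor-gene background described later, 1.04 to 2.78 TPM, so the difference in Klf1 is uncertain. Macrophage markers summed to 46.8 and 41.1 TPM in cKO and 27.3 and 28.1 TPM in Control, and those of fibro-adipogenic cells to 265 and 179 TPM in cKO and 155 and 172 TPM in Control. All 5 markers of either list had positive log2 fold changes, against 55.0% of all genes, and none was called, against 0.551%. The part of these other cells in the values below was not tested.

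Replication genes were the most abundant members, and mitotic genes and transcription factors the least. The median TPM of the 16 replication genes was 17.3 and 13.5 in cKO 1 and 2, against 11.0 and 11.1 in Control 1 and 2. Their summed TPM overlapped between the groups, at 524 and 522 in cKO and 549 and 483 in Control. For the 20 mitotic genes the median was 1.56 and 1.48 in cKO, against 1.17 and 1.94 in Control. The 12 cyclins and CDKs stood between replication and mitotic genes, at 4.48 and 4.21 in cKO and 4.07 and 4.19 in Control. The 4 transcription factors stood at 1.70 and 0.773 in cKO and 1.05 and 1.01 in Control. In bulk RNA, fewer cells of a type and less RNA per cell cannot be told apart, so these levels do not separate a few cycling cells from low expression in all cells.

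A background was set from 1436 olfactory and vomeronasal receptor genes, which satellite cells are not known to express. The 99th percentile of their TPM was 2.78 and 1.04 in cKO 1 and 2, against 1.39 and 1.78 in Control 1 and 2, so the background of cKO 1 was the highest and that of cKO 2 the lowest. Above that level were 14 and 16 of the 16 replication genes in cKO and 15 and 15 in Control. Among the 20 mitotic genes, 8 and 12 were above it in cKO and 9 and 11 in Control. Of the cyclins and CDKs, 6 and 9 of 12 exceeded it in cKO and 9 and 7 in Control. The fewer members above background in cKO 1 (28 of 52) than in cKO 2 (38 of 52) go with those background levels, and Control 1 and 2 had 34 and 33. With a fixed minimum of 1 TPM in place of the percentile, the counts were 44 and 38 in cKO 1 and 2 and 39 and 39 in Control, and cKO 1 stood highest.

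In all 4 libraries, 14 replication genes, 8 mitotic genes and 6 cyclins and CDKs were above the receptor genes, and none of the 4 transcription factors was. Cdk1, the mitotic kinase, and Ccnb1, its cyclin, were above it in no library. Neither were 8 mitotic genes, namely Mki67, the proliferation antigen Ki-67, the kinases Plk1, Aurkb and Bub1, the centromere proteins Cenpe and Cenpf, the kinesin Kif11 and the spindle protein Nusap1. Cdk1 had 0.318 and 0.317 TPM in cKO and 0.123 and 0.245 TPM in Control, at percentile 11.7 of the mean TPM of 21903 protein-coding genes. Mki67 had 0.426 and 0.203 TPM in cKO and 0.338 and 0.458 TPM in Control, at percentile 20.7. At the other end stood Pcna, the sliding clamp of the replicative polymerases, at percentile 97.3 of the protein-coding genes. E2f1 and Mybl2, which encodes B-Myb, were also at or below the background in every library. These low levels limit what a comparison of the groups can show for the mitotic genes and transcription factors.

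**Figure D1:**
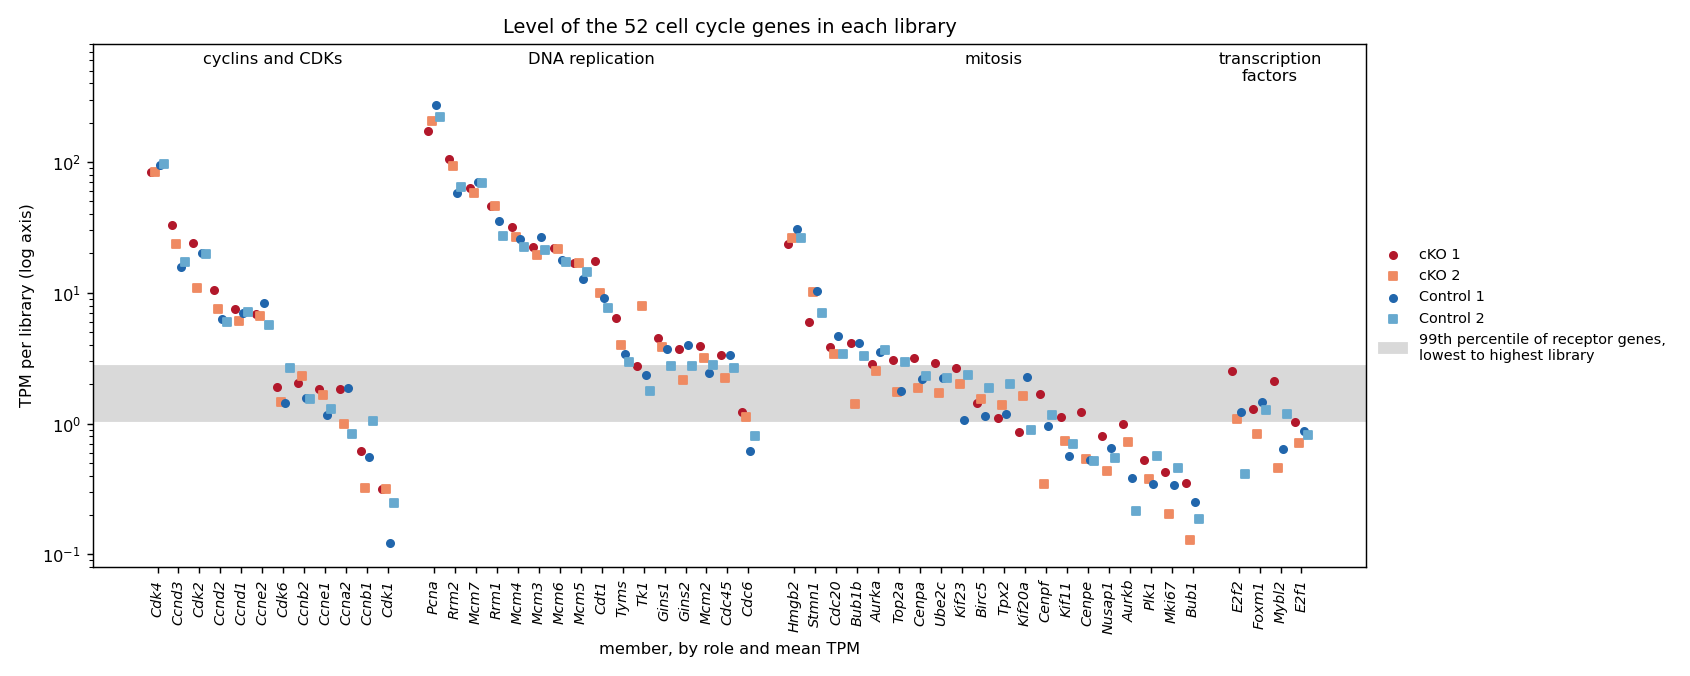
TPM of the 52 cell cycle genes in each library on a log axis, grouped by role, with a grey band for the 99th percentile of the receptor genes, which ran between 1.04 in cKO 2 and 2.78 in cKO 1. Replication genes mostly lie above the band, while Cdk1 at 0.123 to 0.318 TPM and Mki67 at 0.203 to 0.458 TPM lie below it in all 4 libraries.

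Replication and mitotic members also carried different motifs around their transcription starts. RefSeq promoter windows on GRCm38.p6, from 250 bases before to 50 bases after the start, were held for 40 of the 52 members, in 43 windows. On both strands, 3 motifs were searched: an E2F motif (TTTGGCGC, TTTCGCGC, TTTCCCGC or TTTGCCGC), the CHR motif of mitotic genes (TTTGAA) and the CCAAT box (CCAAT). An E2F match stood in 6 of 14 replication windows (42.9%) and in 0 of 16 mitotic windows, against 2.26% of all 32851 windows. A CHR match stood in 12 of 16 mitotic windows (75.0%) and 2 of 14 replication windows (14.3%), against 17.9% of all windows. The CCAAT box was present in 87.5% of mitotic and 71.4% of replication windows, against 37.4% of all windows, so it was common to both. Matches of different motifs overlapped once in the members' windows. The shares are descriptions of these letters and not of factor binding. The 180 bases before the start are shown for 2 replication genes with E2F matches, Mcm6 and Mcm5, subunits of the MCM helicase, and for 3 mitotic genes with CHR matches, the chromatin protein Hmgb2, topoisomerase Top2a and kinesin Kif11. Each reads 5′ to 3′ along the gene's strand. Capitals mark the motif matches on either strand, and matches that overlap form a single run of capitals.
Mcm6, chr1:128359706-128359885, reverse strand: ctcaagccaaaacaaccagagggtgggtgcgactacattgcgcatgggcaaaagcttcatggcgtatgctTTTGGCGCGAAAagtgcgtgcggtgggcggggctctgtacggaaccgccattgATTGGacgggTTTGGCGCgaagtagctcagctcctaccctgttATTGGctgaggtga
Mcm5, chr8:75109329-75109508, forward strand: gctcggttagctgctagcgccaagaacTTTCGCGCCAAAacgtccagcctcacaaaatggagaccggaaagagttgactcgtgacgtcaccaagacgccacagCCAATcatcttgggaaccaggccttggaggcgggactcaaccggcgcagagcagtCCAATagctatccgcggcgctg
Hmgb2, chr8:57511663-57511842, forward strand: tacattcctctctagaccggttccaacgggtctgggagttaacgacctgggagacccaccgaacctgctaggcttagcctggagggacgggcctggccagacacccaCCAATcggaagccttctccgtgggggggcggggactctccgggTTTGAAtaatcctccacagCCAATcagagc
Top2a, chr11:99024190-99024369, reverse strand: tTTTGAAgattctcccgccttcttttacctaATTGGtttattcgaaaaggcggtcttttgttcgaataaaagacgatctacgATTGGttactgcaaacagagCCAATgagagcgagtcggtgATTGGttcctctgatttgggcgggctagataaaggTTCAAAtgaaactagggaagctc
Kif11, chr19:37376202-37376381, forward strand: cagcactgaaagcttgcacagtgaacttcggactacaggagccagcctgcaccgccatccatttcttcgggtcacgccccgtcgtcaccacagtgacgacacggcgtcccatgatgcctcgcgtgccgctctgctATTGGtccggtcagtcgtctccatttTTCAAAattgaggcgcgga
In Mcm6 and Mcm5 the capitals other than CCAAT or ATTGG are E2F matches. In the other 3 they are CHR matches (TTTGAA or TTCAAA), which begin within 30 bases of the start in each, with a further one near the far end in Top2a. Distances run from the RefSeq start. The GENCODE gene model of Top2a begins at the same base, and those of the other 4 genes begin further downstream.

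Levels of the members with these matches can be set beside them as a description. The 8 genes with a window that holds an E2F match and no CHR had a median of their mean TPM of 17.0, with a range of 0.943 to 65.3. For the 16 genes with a window that holds CHR and no E2F match it was 2.33, with a range of 0.356 to 26.9. Cdk1 was the only member with both in 1 window, at a mean of 0.251 TPM. The 17 genes with a window that holds neither had a median of 1.86 and the widest range, 0.230 to 218, and the most abundant members, Pcna, Cdk4 and Rrm2, are among them. Mcm7 and E2f2 have more than 1 window and count in more than 1 set. The ranges overlapped, since Cdc6, which loads the helicase at origins, has an E2F match and had 0.617 to 1.23 TPM over the 4 libraries, while Hmgb2 has a CHR match and had 23.8 to 30.8 TPM.

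No cell cycle gene passed the test between cKO and Control. The edgeR quasi-likelihood test called 0 of the 52 members at an adjusted p under 0.05, against 0.551% of all 38143 genes tested (210 genes, of which 139 rose, 0.364%, and 71 fell, 0.186%, in cKO, or 66 and 53 with the size factors of DESeq2). All 52 members passed the filter on low counts. At an unadjusted p under 0.05 there were 3 members (Tk1, Bub1b and E2f2), against 4.83% of all genes, and the smallest adjusted p was 0.167. Members with a positive log2 fold change numbered 21 of 52, against 55.0% of all genes, and the median was -0.14, against 0.06 over all genes. Scaled by library totals alone, which moved the median of all genes by 0.19, the median of the members was 0.04. DESeq2 also called 0 members, against 0.327% of its genes, and limma on TPM called 0 of the 41 members with a mean of at least 1 TPM, against 0.308% of the genes it tested. With 2 libraries a group and a biological coefficient of variation of 0.373, an SE near 0.34 on the log2 scale was usual for abundant members, and a p that misses the threshold does not show equal levels.

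The few calls that appeared in other fits differed with the library left out. Without cKO 1, edgeR called Tk1 (log2 fold change 1.95, adjusted p = 0.000355), Rrm2 (0.74, adjusted p = 0.00946) and Cdk2 (-0.86, adjusted p = 0.0208), against 2.26% of all genes. Without cKO 2 it called Pcna (-1.03, adjusted p = 0.00751) and Hmgb2 (-0.75, adjusted p = 0.0420), against 5.39% of all genes. No gene was in both sets, and in those fits the lone cKO library was assumed to vary like the Control libraries.

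**Figure D2:**
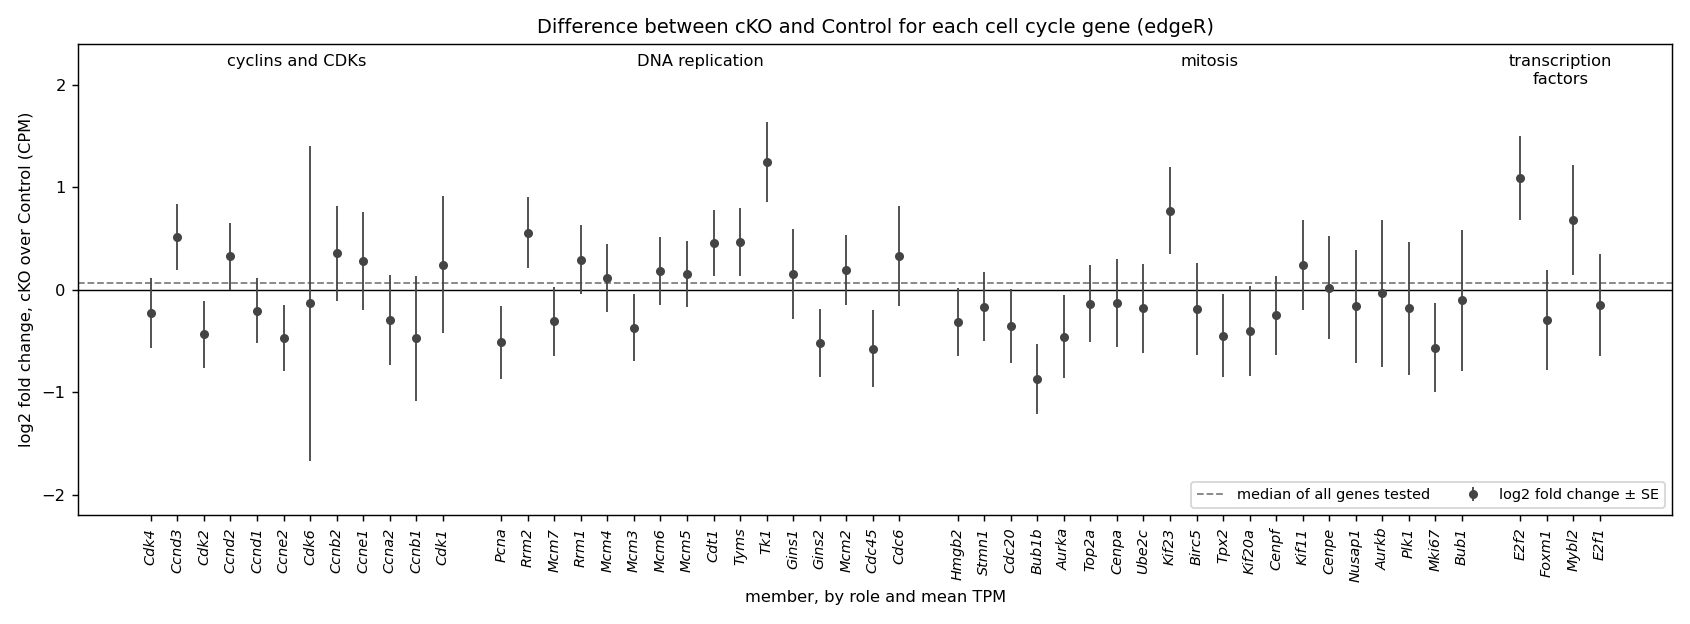
Log2 fold change (cKO over Control, edgeR, with SE bars) of each cell cycle gene, grouped by role. None of the 52 passed an adjusted p of 0.05, and the values run from -0.87 for Bub1b to 1.24 for Tk1.

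Cyclins and CDKs had 5 positive and 7 negative log2 fold changes (41.7% positive, against 55.0% of all genes) with a median of -0.17, and none passed the test. The median turned to 0.090 without cKO 1, to 0.047 without Control 2, and to 0.010, 0.034 and 0.010 in the limma fits on TPM. Cdk4, which with cyclin D phosphorylates the retinoblastoma proteins, was the most abundant of them, at 83.3 and 84.5 TPM in cKO 1 and 2 and 94.2 and 96.2 TPM in Control 1 and 2. Its TPM was lower in both cKO libraries, but its CPM overlapped (log2 fold change -0.23, SE 0.34, edgeR adjusted p = 1.00). Cdk4 shares 17.0% of its 50-base stretches with Tspan31 on the other strand, whose TPM was higher than that of Cdk4 in every library, so reads of the pair may not have been separated. With the pair summed, the log2 ratio of mean TPM was -0.03, against -0.18 for Cdk4 alone. Ccnd3, cyclin D3, had 33.2 and 23.7 TPM in cKO and 15.7 and 17.1 TPM in Control (log2 fold change 0.52, SE 0.32, edgeR adjusted p = 1.00). Both cKO libraries were higher on both scales. Ccnd2, cyclin D2, also stood higher in both cKO libraries, at 10.6 and 7.50 TPM against 6.28 and 5.97 TPM in Control (log2 fold change 0.33). The third D cyclin, Ccnd1, had 7.48 and 6.11 TPM in cKO and 7.01 and 7.11 TPM in Control, and the groups overlapped. Cdk2, the partner of cyclin E, had 24.0 and 10.8 TPM in cKO and 20.3 and 19.7 TPM in Control (log2 fold change -0.43, SE 0.33). Only cKO 2 stood apart in TPM. In CPM both cKO libraries were lower, at 28.5 and 16.7 against 30.2 and 31.0 in Control. Of the E cyclins, Ccne2 had 6.94 and 6.60 TPM in cKO and 8.34 and 5.73 TPM in Control (log2 fold change -0.47, SE 0.32), with overlap. Ints8, which shares 14.4% of the 50-base stretches of Ccne2, had 7.01 to 10.1 TPM. For the pair summed, the log2 ratio of mean TPM was 0.14, against -0.06 for Ccne2 alone. Ccne1 had 1.83 and 1.67 TPM in cKO and 1.17 and 1.296 TPM in Control, higher in both cKO libraries in TPM but not in CPM. Cyclin A2, Ccna2, had 1.83 and 0.993 TPM in cKO and 1.87 and 0.835 TPM in Control, so in TPM the second library of each group was the lower one. In CPM it had 1.63 and 1.70 in cKO and 2.65 and 1.46 in Control, so this held for Control only. Exosc9, which shares 11.4% of the 50-base stretches of Ccna2, had 35.8 to 58.1 TPM. For the pair summed, the log2 ratio of mean TPM was -0.36, against 0.06 for Ccna2 alone, and most of that sum is Exosc9. Cyclin B2, Ccnb2, had 2.03 and 2.298 TPM in cKO and 1.57 and 1.56 TPM in Control, higher in both cKO libraries in TPM but not in CPM. The order of the abundant members was Cdk4, then Cdk2 and Ccnd3, whose ranges overlapped, then Ccnd2, Ccnd1 and Ccne2, whose ranges also overlapped.

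For the replication genes, the scale decided how many stood apart. In TPM, 11 of 16 were higher in both cKO libraries than in either Control library, and 2 were lower, against 23.4% and 9.27% of all genes. In CPM, 3 were higher (Cdt1, Rrm2 and Tyms) and 4 were lower (Cdc45, Mcm3, Mcm7 and Gins2), against 18.0% and 13.3% of all genes. Per library, the median deviation of the 16 genes from the Control mean in log2(CPM + 0.5) was -0.08 in cKO 1 and 0.34 in cKO 2, with 0.14 and -0.14 in Control 1 and 2. Thus cKO 2 was above both Control libraries and cKO 1 lay between them. The median log2 fold change of the 16 was 0.17, and it was 0.38 without cKO 1 and -0.16 without cKO 2. Of the 16, 11 were positive (68.8%, against 55.0% of all genes) and 5 negative. No replication gene was called with all 4 libraries.

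**Figure D3:**
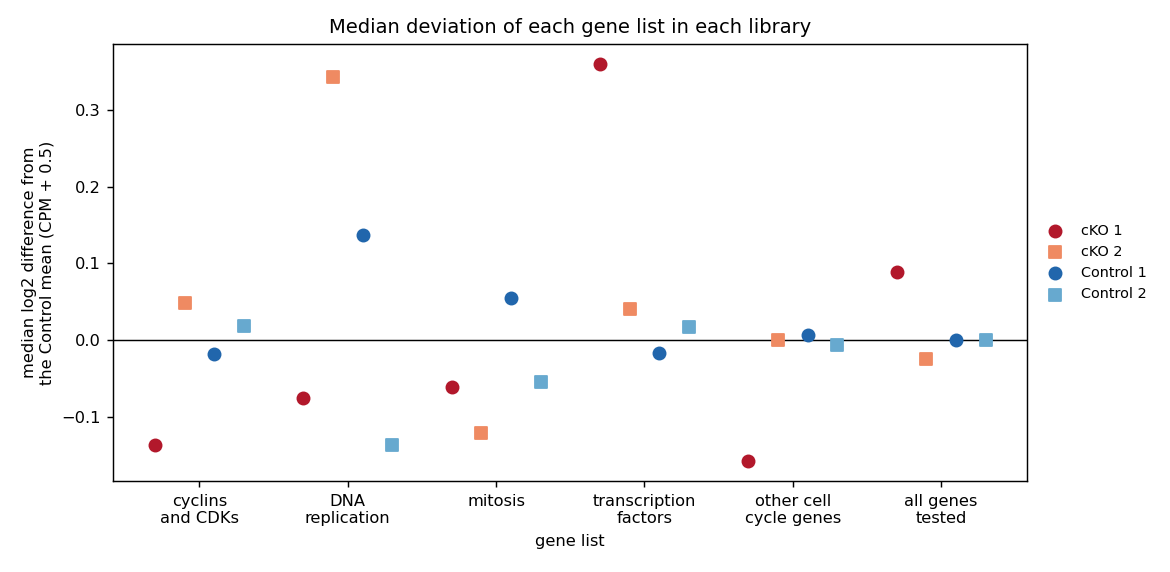
Median deviation from the Control mean, in log2(CPM + 0.5), of each role group, of the other cell cycle genes and of all genes tested, with 1 point for each library. Replication genes have medians of -0.08 in cKO 1 and 0.34 in cKO 2, while the mitotic genes have -0.06 and -0.12. The Control 1 and 2 medians mirror each other by construction.

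Among the genes of nucleotide supply, Rrm2, the regulated subunit of ribonucleotide reductase, lies at chr12:24708241-24714146 (GRCm38, forward strand) and had 106 and 93.6 TPM in cKO 1 and 2, against 57.6 and 64.8 TPM in Control 1 and 2. Both cKO libraries were above both Control libraries on both scales (log2 fold change 0.56, SE 0.34, edgeR adjusted p = 1.00), and of the alternatives run it passed the threshold in 3: the fit without cKO 1, edgeR on library totals alone (0.70, adjusted p = 0.0324, where 0.739% of all genes were called) and limma on unfiltered TPM (0.69, adjusted p = 0.0103, where 0.742% were called). With the filter on TPM, limma gave an adjusted p = 0.0828. Rrm1, the large subunit of the same enzyme, had 46.0 and 46.3 TPM in cKO and 35.2 and 27.3 TPM in Control, but its CPM overlapped (log2 fold change 0.29, SE 0.34). Tyms, thymidylate synthase, had 6.40 and 3.98 TPM in cKO and 3.40 and 2.98 TPM in Control (log2 fold change 0.47). Tk1, the thymidine kinase of S phase at chr11:117815526-117826092 (GRCm38, reverse strand), had 2.76 and 7.91 TPM in cKO and 2.36 and 1.79 TPM in Control. It carried the largest log2 fold change of the members, 1.24 (SE 0.39, edgeR adjusted p = 0.167). In CPM cKO 2 alone stood apart, at 6.53 against 1.57 in cKO 1 and 1.90 and 1.52 in Control, and without cKO 2 the log2 fold change was -0.19.

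Genes of the helicase and clamp did not share a direction. Pcna had 172 and 206 TPM in cKO and 274 and 222 TPM in Control, the highest level of any member. Both cKO libraries were lower in TPM, but in CPM cKO 2 and Control 2 were nearly equal at 194.2 and 194.1 (log2 fold change -0.51, SE 0.36, edgeR adjusted p = 1.00). Pcna shares 19.1% of its 50-base stretches with the pseudogene Pcna-ps2, which had 8.37 and 7.74 TPM in cKO and 12.9 and 10.1 TPM in Control. With the pair summed, the log2 ratio of mean TPM was -0.40, against -0.39 for Pcna alone. Mcm7 led the MCM helicase subunits at 63.8 and 57.7 TPM in cKO and 70.5 and 69.2 TPM in Control, lower in both cKO libraries on both scales (log2 fold change -0.31, SE 0.34). It shares 16.5% of its 50-base stretches with the pseudogene Gm5487, which was listed at 0.781 to 1.89 TPM. Mcm4, Mcm3, Mcm6 and Mcm5 followed, at 22.5 to 31.7, 19.6 to 26.7, 17.1 to 21.9 and 12.9 to 17.0 TPM over the 4 libraries, so Mcm3 overlapped with Mcm4 and with Mcm6, while Mcm4 and Mcm6 did not overlap. Mcm2 was the lowest subunit, at 2.45 to 3.92 TPM, although the subunits form a ring with 1 copy of each. Loading factor Cdt1 had 17.6 and 9.99 TPM in cKO and 9.10 and 7.73 TPM in Control (log2 fold change 0.45). Gins2, a subunit of the GINS complex of the active helicase, had 3.72 and 2.16 TPM in cKO and 3.99 and 2.77 TPM in Control (log2 fold change -0.52, SE 0.33). Another GINS subunit, Gins1, had 4.51 and 3.83 TPM in cKO and 3.72 and 2.75 TPM in Control (log2 fold change 0.15), and Cdc45, which joins the same complex, had 3.34 and 2.23 TPM in cKO and 3.36 and 2.65 TPM in Control (log2 fold change -0.57). The value of Gins2 is uncertain, since 65.4% of its 50-base stretches also lie in Gse1 on the other strand. With the pair summed, the log2 ratio of mean TPM was 0.23, against -0.20 for Gins2 alone.

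On the CPM scale, mitotic genes had 17 negative and 3 positive log2 fold changes (15% positive, against 55.0% of all genes), and none passed the test. Their median was -0.18, and it was -5.5e-05 with library totals only and 0.00085 in limma on unfiltered TPM. Top2a, Aurkb, Bub1, Ube2c, Cenpa and Nusap1 were negative in CPM but had a positive log2 ratio of mean TPM. In CPM, 3 of 20 were lower in both cKO libraries (Mki67, Aurka and Bub1b) and 1 was higher (Kif23), against 13.3% and 18.0% of all genes. In TPM, 1 was lower (Aurka) and 3 were higher (Aurkb, Cenpe and Kif11), against 9.27% and 23.4% of all genes. Bub1b, the spindle checkpoint kinase BubR1 at chr2:118598211-118641591 (GRCm38, forward strand), had the lowest log2 fold change of all members, -0.87 (SE 0.34, edgeR adjusted p = 0.553). Its CPM was 4.30 and 2.71 in cKO, against 8.12 and 4.71 in Control. In TPM it had 4.16 and 1.41 in cKO and 4.17 and 3.28 in Control, where cKO 1 and Control 1 were nearly equal. Kif23, a kinesin of cytokinesis, had 2.48 and 2.76 CPM in cKO and 1.49 and 1.58 CPM in Control (log2 fold change 0.77, SE 0.43, edgeR adjusted p = 1.00), but its TPM overlapped. Aurka, the kinase of the spindle poles, had 2.87 and 2.51 TPM in cKO and 3.55 and 3.64 TPM in Control (log2 fold change -0.46).

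Hmgb2 and Stmn1 were the most abundant members listed with mitosis. Hmgb2, a chromatin protein, had 23.8 and 26.4 TPM in cKO and 30.8 and 26.4 TPM in Control (log2 fold change -0.31, SE 0.33). Stmn1, the microtubule destabiliser stathmin, had 6.02 and 10.2 TPM in cKO and 10.3 and 7.08 TPM in Control (log2 fold change -0.17, SE 0.34). Each overlapped between groups, and each shares over 10% of its 50-base stretches with a processed pseudogene. Cdc20, the activator of the anaphase-promoting complex, had 3.86 and 3.41 TPM in cKO and 4.71 and 3.42 TPM in Control, also nearly equal in cKO 2 and Control 2. Top2a, which untangles sister chromatids, had 3.09 and 1.74 TPM in cKO and 1.79 and 2.96 TPM in Control. The centromere histone Cenpa, the ubiquitin-conjugating enzyme Ube2c, survivin Birc5, the spindle factor Tpx2 and the kinesin Kif20a lay between 0.862 and 3.15 TPM in the 4 libraries. All 5 overlapped between the groups on both scales, with log2 fold changes between -0.45 and -0.13. Kif20a shares 25.2% of its 50-base stretches with Cdc23, which had 19.0 to 22.7 TPM and makes up most of their sum. The log2 ratio of mean TPM was 0.12 for that sum, against -0.36 for Kif20a alone. For Mki67 the CPM was 1.90 and 1.31 in cKO and 2.03 and 2.72 in Control (log2 fold change -0.57, SE 0.43), on a level at the background.

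Among the 4 transcription factors, E2f2 had the higher value in cKO, with 4.24 and 2.42 CPM in cKO 1 and 2 and 1.97 and 1.16 CPM in Control 1 and 2 (log2 fold change 1.09, SE 0.41, edgeR adjusted p = 0.467). The groups did not overlap in CPM, but in TPM the 1.08 of cKO 2 was below the 1.23 of Control 1. Mybl2 had 2.11 and 0.460 TPM in cKO and 0.644 and 1.19 TPM in Control (log2 fold change 0.68, SE 0.54), with cKO 1 alone high. Foxm1, the activator of mitotic genes, had 1.28 and 0.832 TPM in cKO and 1.47 and 1.27 TPM in Control (log2 fold change -0.30, SE 0.49). E2f1, an activator E2F, had 1.03 and 0.713 TPM in cKO and 0.878 and 0.825 TPM in Control (log2 fold change -0.15, SE 0.50). Only E2f2 and Foxm1 exceeded the receptor genes in any library, in 1 each.

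Other genes of the same machinery, taken from lists of 101 genes, gave the same count. In edgeR 0 of 101 were called, against 0.551% of all genes. At an unadjusted p under 0.05 there were 9 (8.91%), against 4.83% of all genes, and the median log2 fold change was -0.07, against 0.06 over all genes. The largest positive value among replication genes outside the 52 was that of Lig1, the DNA ligase that joins Okazaki fragments, with 5.78 and 4.77 TPM in cKO and 2.47 and 2.20 TPM in Control (log2 fold change 1.08, SE 0.34, edgeR adjusted p = 0.170). Both cKO libraries were higher on both scales. Cks1b, a CDK subunit, had 48.2 and 47.8 TPM in cKO and 75.4 and 72.4 TPM in Control (log2 fold change -0.75, edgeR adjusted p = 0.779). Ckap2, a spindle protein, had 5.23 and 4.43 TPM in cKO and 6.94 and 6.65 TPM in Control (-0.85, edgeR adjusted p = 0.546). Lin52, a MuvB subunit, had 37.4 and 18.2 TPM in cKO and 41.4 and 42.8 TPM in Control (-0.86, edgeR adjusted p = 0.515), and Orc2, of the origin recognition complex, had 24.1 and 25.3 TPM in cKO and 35.3 and 37.0 TPM in Control (-0.70, edgeR adjusted p = 0.954). For these 4 genes both cKO libraries were lower on both scales. The remaining genes named by the rule were Ccnf (-0.71), Prim1 (0.64), Nuf2 (1.43) and Espl1 (1.09) in log2 fold change, with adjusted p of 0.695 or more in edgeR. For Nuf2 and Espl1 the higher value came from cKO 1 alone.

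The CDK inhibitor Cdkn1a, which encodes p21, was more abundant than any of the 52 genes. It had 577 and 553 TPM in cKO and 366 and 511 TPM in Control. Both cKO libraries were higher in TPM (log2 fold change 0.24, edgeR adjusted p = 1.00). Cdkn1c, which encodes p57, had 10.2 and 4.45 TPM in cKO and 2.90 and 3.96 TPM in Control (log2 fold change 0.91, edgeR adjusted p = 0.558). Cdkn2d, which encodes p19 of the INK4 family, had 15.6 and 11.6 TPM in cKO and 6.67 and 8.12 TPM in Control (log2 fold change 0.74, edgeR adjusted p = 0.770). Of the 7 inhibitors tested, 6 had positive values, against 55.0% of all genes, and none was called, against 0.551%.

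The 2 scales did not always move together for a gene, and the transcript length implied by their ratio differed between libraries. The log2 ratio of cKO to Control was higher in TPM than in CPM by a median of 0.18 over the 52 members, and 8 members had opposite signs on the 2 scales. For 12 members the implied transcript length differed over 1.5 times between libraries. Aurkb, the kinase of the chromosomal passenger complex, is the clearest case. It had 29 and 32 counts in cKO and 36 and 21 in Control (log2 fold change -0.03), but 0.993 and 0.729 TPM in cKO and 0.385 and 0.213 TPM in Control, a log2 ratio of 1.52. The implied length was 761 and 767 bases in cKO, against 1977 and 2031 bases in Control. For Cdk6, the other kinase partner of the D cyclins, the split followed the replicate number instead. Its counts were 170 and 836 in cKO and 162 and 854 in Control, with implied lengths of 2333 and 9892 bases in cKO and 2389 and 6649 bases in Control. The replicate number coincides with a field in the names of the data columns, whose meaning the labels do not give, so the 2 cannot be told apart. Why the implied lengths differ was not tested.

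**Figure D4:**
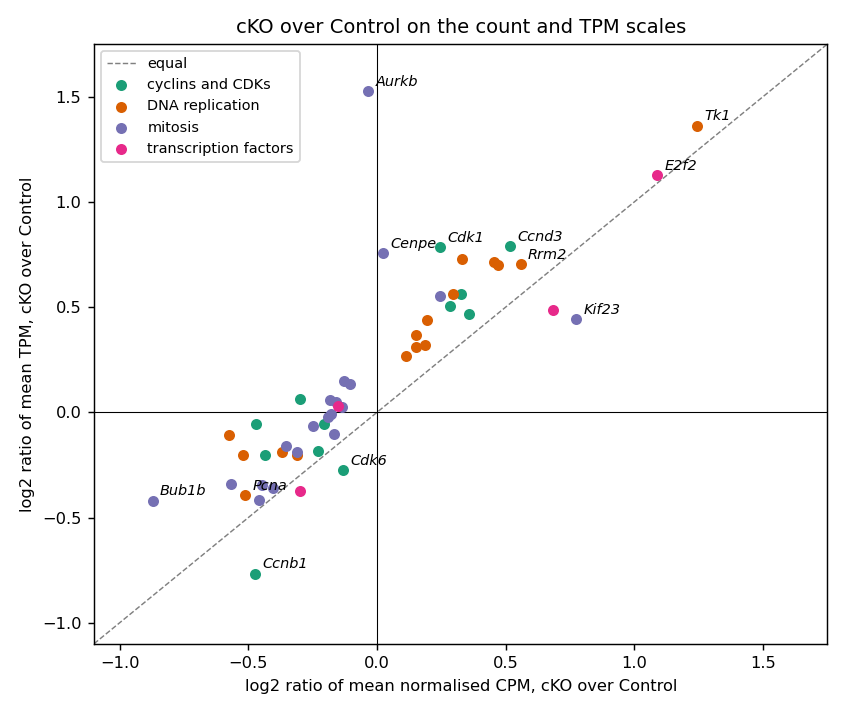
Log2 ratio of cKO to Control for each cell cycle gene in TPM against the same ratio in CPM, coloured by role, with the line of equality. Most points lie above the line, by a median of 0.18, and Aurkb lies farthest from it at 1.52 in TPM.

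Sequence shared with other genes limits some of these values. Over 10% of the 50-base stretches of 15 members occur in another annotated gene, and 17 members have exons that overlap a gene on the other strand, which a library without strand cannot separate. Among the members with values above, these include Cdk4, Pcna, Mcm7, Gins2, Hmgb2, Stmn1, Cdc20, Ccna2, Ccnd1, Ccne2, Kif20a, Ube2c and Mybl2. Ube2c shares 14.1% of its 50-base stretches with Tnnc2 on the other strand, which had 6.54 to 13.6 TPM. With that pair summed, the log2 ratio of mean TPM was -0.34, against 0.06 for Ube2c alone, and most of that sum is Tnnc2. The place of Ube2c above the receptor genes is therefore uncertain. Rrm2, Tk1, Bub1b and E2f2 each share less than 5% of such stretches.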

How the data were processed

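RNA of each library was reverse transcribed by a SMART-Seq protocol, per the labels' protocols. HISAT2 2.1.0, StringTie 1.3.6 and GRCm38 appear in the submitters' processing notes, without their roles. The sources used here do not give the strand setting or annotation. The deposited tables hold estimated counts per gene, already whole numbers, and TPM per gene, which the authors corrected for transcript length and which keep no depth.

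From the deposited estimated counts, edgeR 4.0.16 in R 4.3.3 fitted cKO against Control over all 38143 genes that passed filterByExpr (TMM, robust quasi-likelihood test, Benjamini-Hochberg adjusted p under 0.05). The SE was taken as the log2 fold change over the root of the F statistic. TPM were compared with limma 3.58.1 on log2(TPM + 1). Motif and sequence searches ran in Python 3.11.15. The scripts were tested on simulated data. Transcript models were those of GENCODE on GRCm38, and promoters those of RefSeq.

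The members and lists were chosen with earlier results of these data known. Values in each library are given, per role, for the 4 members with the highest mean TPM and the 3 with the smallest unadjusted p. From each list of other cell cycle genes, the 3 with the smallest p are named. Rbfox2 and Pax7 are always named, and other members shown were chosen after their values were seen. Alternatives were other scalings and filters, DESeq2 1.42.0, a block on the replicate number and each library left out in turn.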

Additional observations from a re-analysis of the deposited data

How the results depend on the processing

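The number of genes called out of all genes tested was 210, and it was 119 with DESeq2 size factors in edgeR, 28 without the low-count filter, 60 where 2 libraries had to reach 1 CPM, 92 with DESeq2, and 51 to 2267 with 1 library left out. Limma on TPM called 53, with a pseudocount of 0.1 it called 102, and with no filter 404. With the replicate number as a block 96 genes were called. The deviations of same-numbered libraries had a weak negative correlation (r = -0.17 across 38143 genes), so the numbers were not taken as pairs. Single genes such as Cdk6 did move with the number. A crossed pairing, added after seeing the data, called 243 genes. Members called were 1 with library totals only, 1 in limma with no filter and 0 to 3 with 1 library left out. For the other cell cycle genes the count was 1 in limma with no filter and 0 to 9 with 1 library left out. Rbfox2 lost its call at a log2 fold change of -1.47 with library totals only, -1.81 with no filter, -1.59 with the CPM filter, -2.61 to -1.04 with 1 library left out, and -1.16, -1.20 and -1.16 in the 3 limma fits.

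The median log2 fold change of all members was 0.041 with library totals only, -0.18 to -0.0025 with 1 library left out and 0.011, 0.012 and 0.014 in the limma fits. For replication genes it was 0.31 with library totals only, -0.16 to 0.38 with 1 library left out, and 0.29, 0.32 and 0.30 in limma. For mitotic genes it was -5.5e-05 with library totals only, -0.31 to -0.10 with 1 library left out, and 0.00085 in limma with no filter. For the transcription factors it was 0.18 with DESeq2 size factors, 0.48 with library totals only, 0.39 with the CPM filter, 0.18 with DESeq2, 0.047 to 0.42 with 1 library left out, and 0.17, 0.18 and 0.088 in limma. Leaving out cKO 1 moved the median of all genes by -0.12. Members above the background in cKO 1 numbered 44 at 1 TPM.

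Directions of single genes reversed in 10 cases, none of them past the threshold. With 1 library left out the log2 fold changes ran between -0.087 and 0.48 for Cdkn1a, -0.88 and 0.094 for Foxm1, -0.00067 and 1.13 for Mybl2, -0.54 and 2.17 for Nuf2, -0.15 and 0.60 for Rrm1, -1.03 and 0.36 for Stmn1, and -0.19 and 1.95 for Tk1. E2f1 was at 0.018 with library totals only and 0.0093 in limma with no filter. Of the other single-gene values, 404 kept their direction and side of the threshold and 18 passed it. The cause of these shifts was not tested. At these levels and with 2 libraries a group, little can be said of members near the receptor-gene background, mitotic genes and transcription factors among them.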
